A study of Danio rerio with 12 samples.

Results

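Liver RNA of estradiol-treated male zebrafish was compared with that of untreated female zebrafish, to find which genes still set a male liver exposed to the female hormone apart from a normal female liver. The comparison takes 6 of the 12 libraries of the study: 3 from males given β-estradiol and 3 from females given DMSO, the solvent. All fish were wild-type adults kept in single tanks and dosed every day for 6 weeks from 3 months of age. The other 6 libraries, 3 from males given DMSO and 3 from females given β-estradiol, shared the model fit and serve here as reference levels. Sex and treatment both differ between the 2 groups compared, so a difference between them belongs to neither alone. DMSO libraries carry numbers 7 to 12 and estradiol libraries 19 to 24, so library number and treatment cannot be told apart. Whether every library is a fish of its own is not stated, and the p-values reflect the spread among the libraries given, which may be technical.

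In egg-laying vertebrates the liver of the female makes the yolk precursors, the vitellogenins, and carries much of the sex difference in drug and steroid metabolism. Estradiol binds nuclear estrogen receptors in hepatocytes, which raise their own transcript and switch on yolk protein synthesis, and a male given the hormone starts this programme too. The secretory load of that programme falls on protein folding in the endoplasmic reticulum, lipid supply and amino acid use, which is why genes of those pathways are described below.

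Values are FPKM, a level scaled to transcript length and library size, for 14581 genes. A gene was tested if 3 or more of the 12 libraries had 1 FPKM or above, and 9190 genes met this. Differences are male estradiol minus female DMSO on the scale log2(FPKM + 1), which understates the change of genes near 1 FPKM. A gene is called different where limma's Benjamini-Hochberg adjusted p is under 0.05, and the words higher and lower are kept for such genes, unless values alone are compared.

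The libraries of treated males were the less uniform of the pair. The sum of FPKM ran from 304905 to 786203 in male estradiol and from 791666 to 906620 in female DMSO. Spearman correlations over the genes tested were 0.472 to 0.832 among the male estradiol libraries, 0.856 to 0.909 among the female DMSO libraries and 0.502 to 0.855 between the groups. Hepatocyte markers were abundant in all 6 libraries: the mean log2 level of 18 genes was 8.15, 11.11 and 9.51 in male estradiol replicates 1 to 3, and 9.46, 9.31 and 9.70 in female DMSO replicates 1 to 3. The hepatocyte list includes tfa, at 3919, 16527 and 9637 FPKM in male estradiol and listed at 0 in female DMSO, possibly a failed estimate. It raises the male estradiol means relative to those of female DMSO. Markers of 3 other organs were also detected, at levels that differed between libraries, and where these transcripts came from was not tested.

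Oocyte transcripts were abundant in male estradiol replicates 1 and 3, libraries labelled male. The sex label of these libraries could not be checked further here, so every male estradiol value below carries this doubt for 2 of its 3 libraries. The mean log2 level of 23 oocyte genes was 6.27 and 5.26 there, 1.57 in male estradiol replicate 2, and 1.64, 3.09 and 0.66 in female DMSO. In female estradiol replicates 1 to 3, the treated female reference, the same mean was 6.33, 0.04 and 4.26, so those libraries were split as well. Of these genes, 21 of 23 reached 1 FPKM in male estradiol replicates 1 and 3, and the summed FPKM ran from 90.53 to 6039 in male estradiol and from 19.7 to 445.1 in female DMSO. The oocyte maturation gene zar1 stood at 285.4, 4.399 and 85.62 FPKM in male estradiol and at 3.044, 18.5 and 0.5623 FPKM in female DMSO. The germ cell growth factor gdf9 stood at 9.133, 0 and 3.261 against 0.08085, 0.2894 and 0 FPKM, while h1m and figla were listed at 0 in all 12 libraries. Exocrine pancreas markers went the other way: the mean of 18 genes was 2.53, 4.42 and 2.76 in male estradiol against 8.20, 6.12 and 7.79 in female DMSO, with 14 to 15 and 17 genes at 1 FPKM or more. Their summed level was 150 to 829.2 FPKM against 3729 to 16756 FPKM, and the same gap stood between the other DMSO and estradiol libraries. Intestine markers (14 genes) averaged 4.44 and 5.14 in female DMSO replicates 1 and 2, 0.70 in replicate 3, and 0.24 to 1.4 in male estradiol. Their summed level was 51.57 to 3105 FPKM in female DMSO and 2.741 to 43.62 FPKM in male estradiol. In bulk tissue, fewer cells of a type and less RNA per cell cannot be told apart.

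**Figure D1:**
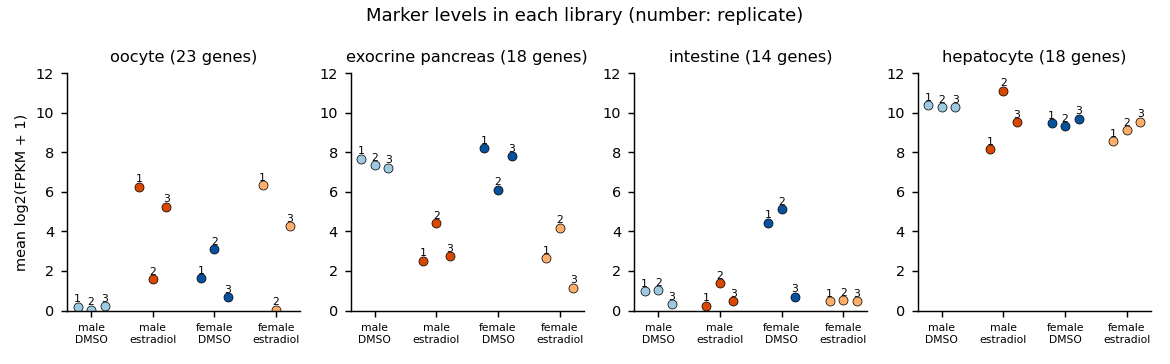
Mean log2(FPKM + 1) of the oocyte, exocrine pancreas, intestine and hepatocyte marker genes (y axis) in each of the 12 libraries, by group (x axis), with the replicate number above each point. Oocyte markers are high in replicates 1 and 3 of male estradiol and of female estradiol. Intestine markers are high in female DMSO replicates 1 and 2, and exocrine pancreas markers in every DMSO library.

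Between the 2 groups 59 of 9190 genes differed, or 0.642% of those tested: 10 were higher in treated males (0.109%) and 49 lower (0.533%). At an unadjusted p under 0.05 there were 1813 genes, and the median difference of all genes tested was 0.16. The groups did not overlap in 2238 genes, or 24.4% of those tested, and in none of the 59 did they overlap. Lack of overlap in a called gene named below is therefore no added support for it. In a gene not called it is no support either, since it is shared with 24.4% of all genes. The same rule called 0.109% of genes between treated males and treated females, 0.555% between untreated males and untreated females, 2.73% between treated and untreated females and 3.79% between treated and untreated males; these comparisons share libraries with the one described.

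The 49 lower genes were 10 members of the exocrine pancreas marker list, 4 elastase and chymotrypsin genes under clone names, 4 genes named after 1 genomic clone (si:ch211-240l19.5 to si:ch211-240l19.8), and 31 others. Both the number of calls and their split rest on few libraries. Leaving out female DMSO replicate 1, male estradiol replicate 1 or male estradiol replicate 3 left 13, 16 and 22 calls, and leaving out male DMSO replicate 1 or 2, which enter through the shared spread, left 39 and 38. Without male estradiol replicate 2 there were 1512 calls, 976 of them higher, without female DMSO replicate 3 there were 123, and without female estradiol replicate 1 there were 109. The fit without male estradiol replicate 2 keeps replicates 1 and 3, whose many oocyte transcripts and doubtful sex label are described above. Any gene said below to pass in that fit passes on those 2 libraries. A fit of the 6 libraries alone called 2 genes, tfa and eif4ebp3. Calls that stood whichever of the 12 libraries was left out numbered 10: 8 lower ones, eif4ebp3, apoa1a, si:ch211-240l19.7, sat2a, ugt1a5, bcat1, tgfbi and adh5, and 2 higher ones, g3bp2 and tfa. Tfa was listed at 0 in every DMSO library, which may be a failed estimate, so its standing in these fits is no support. Rescaling the libraries without their 10 highest genes moved the median of all genes to 0.72 and gave 24 higher and 26 lower calls.

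The counts also moved with the level of the other organs' transcripts. When the 4 estradiol libraries with many oocyte transcripts (replicates 1 and 3 of both sexes) were left out, there were 440 calls, 279 higher and 161 lower, among which 35 of the 59 remained, but male estradiol was then 1 library, assumed to vary like the other groups. With the oocyte marker level as a covariate there were 121, 57 higher and 64 lower, and 54 of the 59 remained. Without female DMSO replicates 1 and 2, the intestine-rich libraries, tfa was the 1 gene called, with 1 female DMSO library left. With the exocrine pancreas level as a covariate tfa was again the 1 gene called; this level separates DMSO from estradiol libraries in both sexes, so it cannot be told apart from the treatment.

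**Figure D2:**
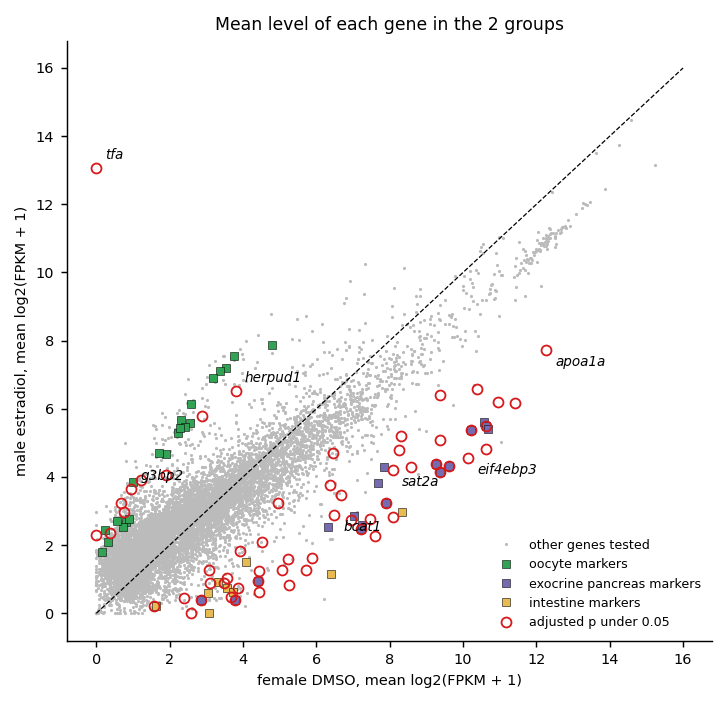
Mean log2(FPKM + 1) of each of the 9190 genes tested in female DMSO (x axis) and male estradiol (y axis), with the 59 genes called different circled and oocyte, exocrine pancreas and intestine markers as squares; the dashed line marks equal means. Called genes lie mostly below the line, with exocrine pancreas genes among them, and the oocyte markers lie above it uncalled.

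Among genes described here whose levels differ between untreated female and male livers, nots, hsd17b3 and cyp2k6 overlapped the untreated female range in treated males. Others, such as cyp2k22 and esr1, did not. How many of all such genes overlapped was not counted. Nothepsin (nots), an aspartic protease of the female zebrafish liver, measured 718.2, 3610 and 3563 FPKM in male estradiol and 2153, 2260 and 1650 FPKM in female DMSO, against a mean of 6.235 FPKM in male DMSO. The groups overlapped, and the difference of 0.07 had a 95% confidence interval of -1.38 to 1.52 (adjusted p = 0.961). The male-high gene hsd17b3, a steroid dehydrogenase that makes testosterone, was at 0.323, 0.223 and 0.05186 FPKM in treated males and 0.2398, 0.04974 and 0.1875 FPKM in untreated females, with a mean of 68.44 FPKM in untreated males. Its difference was 0.05 with an interval of -0.80 to 0.89, and no library of either group came near the male level. Every library of both groups was below 1 FPKM, where this scale holds a difference near 0. The small difference is therefore no support for equal levels.

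A pair of cytochrome P450 genes did not pass the test, one with groups apart in value and one with overlap. The cytochrome P450 gene cyp2k22 averaged 776 FPKM in male DMSO and measured 12.32, 7.697 and 0.957 FPKM in female DMSO and 0.05229, 0.1178 and 0.09874 FPKM in male estradiol. Treated males were thus below the untreated females (-2.48, interval -3.73 to -1.24, adjusted p = 0.0781), and cyp2k22 passed the test without female DMSO replicate 3 (adjusted p = 0.00141), without male estradiol replicate 2 (0.0292), under quantile normalization (0.0481), or with a pseudocount of 0.1 FPKM (-4.64, adjusted p = 0.0286). Its relative cyp2k6, picked out after its values were seen, was the reverse in untreated fish, with 59.96, 71.22 and 24.97 FPKM in female DMSO and a mean of 0.09043 FPKM in male DMSO. In treated males it reached 4.314, 7.689 and 27.83 FPKM, and the difference from untreated females was -2.14 (adjusted p = 0.116). Cyp2k6 passed without male estradiol replicate 3 (adjusted p = 0.0494) and without the oocyte-rich libraries (0.0445).

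Estrogen receptor transcripts were not called different. The main liver receptor esr1 measured 4.402, 36.41 and 7.354 FPKM in treated males and 88.46, 36.99 and 65.48 FPKM in untreated females, and averaged 1.067 FPKM in untreated males. The highest treated male was just under the lowest untreated female, and the difference was -2.35 (interval -3.67 to -1.04, adjusted p = 0.109). Treated females, at 10.29, 13.34 and 11.95 FPKM, were also below untreated females in value (-2.25, limma adjusted p = 0.0722). Treated males differed from treated females by -0.10 (limma adjusted p = 0.956). The second receptor esr2b measured 0.9877, 4.59 and 3.041 against 24.45, 14.28 and 29.41 FPKM, without overlap (-2.68, adjusted p = 0.0899). Both passed without male estradiol replicate 2 (adjusted p = 0.00395 for esr1 and 0.0201 for esr2b), and esr2b also without female estradiol replicate 1 (0.0441). In the fit without male estradiol replicate 2, male estradiol was the 2 oocyte-rich libraries, and 1512 genes were called. For the third, esr2a, the difference was 0.33 and the groups overlapped. Of the 8 receptor genes tested, 0 passed limma's threshold, 3 had an unadjusted p under 0.05, and the median difference was -1.07 against 0.16 for all genes; the androgen receptor ar was at -1.38, the progesterone receptor pgr at -0.60, the orphan receptors esrra and nr0b2a at -1.32 and -0.82, and the glucocorticoid receptor nr3c1 at 0.43. The membrane estrogen receptor gper1 was not tested, with at most 0.03614 FPKM in the 6 libraries.

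The vitellogenins, the yolk precursors that head the female programme, gave no usable test. The 6 vitellogenin genes in the table were listed at 0 in all libraries of both groups and of treated females, while vtg1 stood at 310.3, 41.12 and 34.97 FPKM in untreated males. An exact 0 in such a table can be a failed estimate, and a fold cannot be given.

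**Figure D3:**
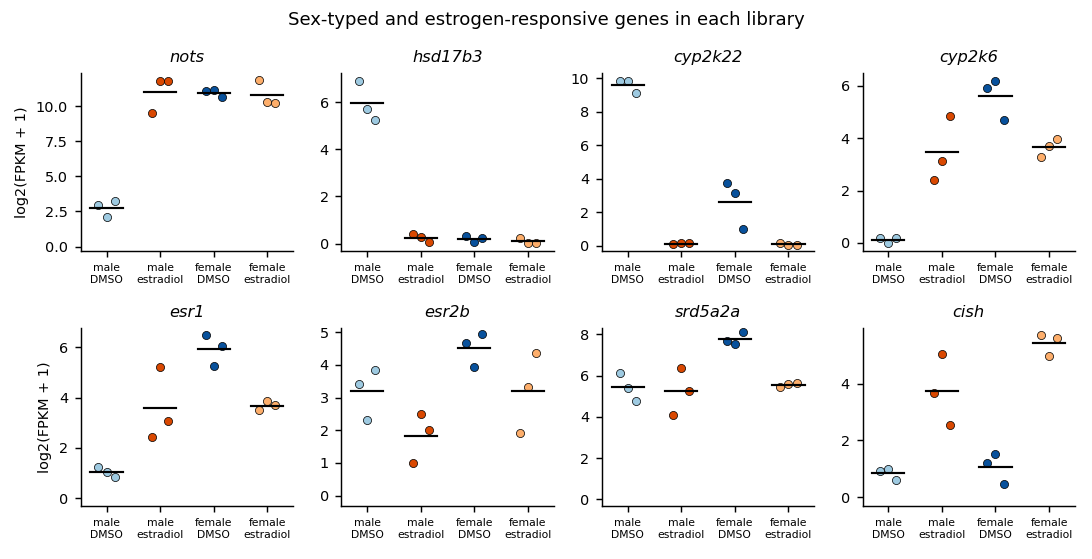
Level of 8 sex-typed or estrogen-responsive genes as log2(FPKM + 1) (y axis) in the 4 groups (x axis), with 1 point a library and a bar for the mean of 3. Male estradiol overlaps female DMSO in nots and hsd17b3, lies below it in cyp2k22, esr1, esr2b and srd5a2a, overlaps it in cyp2k6 and lies above it in cish.

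A pair of further genes of the list of female-type and estrogen-responsive genes came close to the threshold. Steroid 5α-reductase srd5a2a, which reduces testosterone, measured 16.14, 82.84 and 37.86 FPKM in treated males and 203.2, 184.1 and 275.6 FPKM in untreated females (-2.52, adjusted p = 0.0564). Untreated males, with 68.3, 41.46 and 26.78 FPKM, overlapped the treated males, and treated females averaged 46.58 FPKM. The cytokine signalling inhibitor cish measured 11.69, 32.14 and 4.779 against 1.285, 1.866 and 0.3657 FPKM (2.70, adjusted p = 0.0524). Both passed without male estradiol replicate 2 (adjusted p = 0.007 for srd5a2a and 0.019 for cish), and cish also without male estradiol replicate 3 (0.0285) or female estradiol replicate 1 (0.0484). In both genes the groups did not overlap, which held for 6 of the 21 genes tested in this list, near the 24.4% of all genes. Of 21 genes tested in this list, tfa was higher and rbp2a lower (9.52% called, against 0.642% of all genes). The tfa call rests on values of 0 that may be failed estimates, as described below. The list's median was -0.34, positive in 5 of 27 alternative settings.

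Among the higher genes the largest value belonged to transferrin (tfa), the iron carrier of plasma. It measured 3919, 16527 and 9637 FPKM in treated males and was listed at 0 in the 3 female DMSO libraries and in the 3 male DMSO libraries. Treated females had 2076, 5761 and 7012 FPKM. Transferrin is an abundant liver transcript, so a 0 here may be a failed estimate, and no fold is given. The call stood whichever library was left out, but with a failed estimate in every DMSO library that outcome was fixed in advance and is no support. The clone-named gene zgc:165656, which RefSeq lists as aplf, a DNA repair factor, was also called, with 4.492, 2.154 and 5.786 FPKM against 0 in each untreated female. Outside male estradiol zgc:165656 reached 1 FPKM only in female estradiol replicate 3 (1.209), and it was listed at 0 in every DMSO library. It thus passed the filter only through the group where it is high, so its call is no support for a difference. Its call ended without female DMSO replicate 1, male estradiol replicate 1 or male estradiol replicate 3 (adjusted p up to 0.0802).

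The higher genes herpud1, atp2a2a and cisd2 encode proteins of the endoplasmic reticulum. Herpud1, a membrane protein that helps to clear misfolded proteins from the endoplasmic reticulum, measured 59.54, 145.8 and 88.9 FPKM against 19.04, 8.312 and 13.61 FPKM. The difference was 2.73 (SE 0.41, adjusted p = 0.0133), and treated females, with 35.2, 26.46 and 22.46 FPKM, lay between the 2 groups. Its call ended without male estradiol replicate 3 (adjusted p = 0.0523). The calcium pump gene atp2a2a measured 11.51, 8.742 and 5.774 against 0.5429, 0.8237 and 0.4488 FPKM (2.55, SE 0.35, adjusted p = 0.0087), a call that ended without female DMSO replicate 1 (adjusted p = 0.0589). Its more abundant paralog atp2a2b, with mean log2 levels of 5.573 in treated males and 5.774 in untreated females, was not called (-0.2, adjusted p = 0.815). Cisd2, an iron-sulfur protein of the same membranes and of mitochondria, measured 14.25, 19.59 and 13.77 against 2.199, 2.24 and 4.046 FPKM (2.16, adjusted p = 0.0309). In herpud1, atp2a2a and cisd2, as in every gene called higher, every treated male was above every untreated female.

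The folding list to which herpud1 belongs had few calls. Of 47 tested genes of protein folding and the unfolded protein response, 1 was higher and 1 lower (4.26% called, against 0.642% of all genes), 34 had a positive difference, and the median was 0.72 against 0.16. At an unadjusted p under 0.05 there were 17 positive and 2 negative genes, against 949 and 864 of all 9190, and in 18 the groups did not overlap, against 24.4% of all genes. The ubiquitin ligase syvn1, which tags misfolded proteins, measured 38.03, 57.35 and 46.96 against 12.03, 10.75 and 16.97 FPKM (1.77, adjusted p = 0.0634). The disulfide isomerase pdia4 measured 155.5, 1887 and 251.4 against 44.26, 46.45 and 67.54 FPKM (2.99, adjusted p = 0.115). Both passed without male estradiol replicate 2 (adjusted p = 0.0307 for syvn1 and 0.0398 for pdia4), and syvn1 also without female estradiol replicate 1 (0.0484) or 3 (0.0464). The lower member, pdia2, is a pancreatic disulfide isomerase and is counted with the pancreas genes. The median of this list was positive in all 27 alternative settings, between 0.22 and 2.09.

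Endothelial lipase (lipg), which breaks down the phospholipids of lipoproteins, measured 75.96, 52.83 and 39.02 FPKM in treated males and 4.951, 6.786 and 7.542 FPKM in untreated females, 8.7 times as much by group mean (2.90, SE 0.53, adjusted p = 0.0309). Treated females had 23.05, 14.91 and 52.67 FPKM and untreated males at most 2.453. The mitochondrial citrate carrier slc25a1a, which exports citrate for fatty acid and sterol synthesis, measured 14.1, 3.063 and 6.69 against 0.6077, 0.8685 and 0.6136 FPKM (2.2, adjusted p = 0.0497). The phosphoinositide phosphatase mtmr1b measured 5.967, 3.363 and 3.436 against 0.1093, 0.7108 and 0.1332 FPKM (1.99, adjusted p = 0.015). Outside male estradiol mtmr1b reached 1 FPKM only in female estradiol replicates 1 and 3 (1.52 and 1.123). It passed the filter only with the group where it is high, so its call is no support for a difference. These 3 calls were fragile: each ended without female DMSO replicate 1 (adjusted p = 0.194 for lipg, 0.232 for slc25a1a and 0.108 for mtmr1b), male estradiol replicate 1 or male estradiol replicate 3, as did that of cisd2 (0.194 without female DMSO replicate 1). Those of lipg and cisd2 also ended without female DMSO replicate 2 (0.0861 and 0.126) or male DMSO replicate 3 (0.0535 and 0.0602), and that of slc25a1a stood in 2 of the 12 fits that left out 1 library.

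The remaining higher genes were g3bp2 and kif11. G3bp2, an RNA-binding protein of stress granules, measured 6.652, 16.2 and 14.14 FPKM against 1.042, 1.018 and 0.7711 FPKM (2.70, SE 0.36, adjusted p = 0.00846). Treated females were at 13.1, 9.554 and 9.226 FPKM, and their difference from untreated females was 2.57 (adjusted p = 0.00564). The mitotic motor kif11 measured 24.43, 13.57 and 8.009 against 1.157, 3.072 and 0.4529 FPKM (2.68, adjusted p = 0.0243). Its list, cell division, had 1 of 62 genes called (1.61%, against 0.642% of all genes) and a median of 1.3. Oocyte markers were at 6.27, 1.57 and 5.26 in the same treated males. The list's median was -0.91 without the oocyte-rich libraries, with 1 male estradiol library left, and 0.53 with the oocyte level as a covariate. With the exocrine pancreas covariate it was -0.82. The kif11 difference was 2.64 and 2.67 in the oocyte settings and ran from 1.96 to 3.42 over all settings. The part of oocyte transcripts in the list or in kif11 was not tested. The kif11 call ended without female DMSO replicate 1 (adjusted p = 0.15) or 3 (0.0512), male DMSO replicate 1 (0.0503) or 2 (0.0513), or male estradiol replicate 1 (0.0815).

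Among the lower genes with a symbol the largest log2 difference was that of eif4ebp3, a member of the family of proteins that bind the cap-binding factor eIF4E and hold back translation until mTOR phosphorylates them. It measured 22.08, 15.43 and 34.22 FPKM in treated males and 1493, 790.6 and 1220 FPKM in untreated females, 48.8 times as much by group mean. The difference was -5.57 (SE 0.56, interval -6.79 to -4.35, adjusted p = 0.0015). Its levels in the 4 groups ran from treated males at the bottom through untreated males (95.24, 79.86 and 19.62 FPKM) and treated females (138.7, 109.6 and 134.4 FPKM) to untreated females. Against untreated females, untreated males differed by -4.38 (adjusted p = 0.00211) and treated females by -3.14 (adjusted p = 0.0148), while treated males and treated females differed by -2.43 (adjusted p = 0.235), and untreated males overlapped treated males in 1 library. Without the oocyte-rich libraries the difference of eif4ebp3 was -6.10 (adjusted p = 0.00928), and without the intestine-rich ones -5.69 (adjusted p = 0.0832).

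The paralog eif4ebp3l was also below the untreated females in value without passing, and whether the 2 genes differ in size was not tested. It measured 41.69, 116.7 and 24.16 against 137.8, 210.2 and 203.4 FPKM (-1.86, adjusted p = 0.163), and passed without male estradiol replicate 2 (0.016). The list of PI3K, AKT and mTOR pathway genes, which does not hold eif4ebp3, had 0 of 43 genes past limma's threshold and a median of 0.04. At an unadjusted p under 0.05 there were 9 (4 positive and 5 negative, against 949 and 864 of all 9190).

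The lower genes apoa1a, rbp2a and ahsg2 encode plasma or retinol-binding proteins. Apolipoprotein apoa1a, a main protein of high-density lipoprotein, measured 208, 272 and 167.7 FPKM in treated males and 5561, 7014 and 3111 FPKM in untreated females (-4.54, SE 0.47, adjusted p = 0.0015). Untreated males were at 9955, 8807 and 7388 FPKM and treated females at 511.4, 873.8 and 369.8, so both treated groups were below both untreated ones. Its paralog apoa1b was more abundant, with mean log2 levels of 13.498 in treated males and 13.634 in untreated females. Apoa1b was not called (-0.14, adjusted p = 0.932), so the call of apoa1a does not extend to both genes. The retinol-binding protein gene rbp2a measured 46.7, 28.11 and 290.5 against 1415, 3380 and 1648 FPKM (-4.75, SE 0.81, adjusted p = 0.0212). Its call ended without female DMSO replicate 1 (0.0802), female DMSO replicate 2 (0.0815) or male estradiol replicate 1 (0.0883). The gene si:ch73-252g14.4, which RefSeq lists as ahsg2, a fetuin of plasma, measured 54.58, 59.18 and 253.6 against 1375, 1094 and 1549 FPKM (-3.81, adjusted p = 0.0234) and lost its call without female DMSO replicate 1 (0.125), female DMSO replicate 2 or male estradiol replicate 1 (0.0883). In none of apoa1a, rbp2a and ahsg2 did the groups overlap, as in no called gene. The related gene ahsg, with mean log2 levels of 9.5 in treated males and 10.012 in untreated females, was not called (-0.51, adjusted p = 0.635). The hepatocyte fatty acid binding protein fabp10a, with 6560, 7578 and 15596 against 35078, 32210 and 50080 FPKM, did not pass (-2.06, adjusted p = 0.0899), except without male estradiol replicate 2 (0.0355), without the oocyte-rich libraries (0.00577), with a filter of 5 FPKM (0.0327) or with no intensity trend (0.0308), array weights aside.

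The plasma protein list as a whole was mixed. Of 41 genes of lipoproteins and plasma proteins, 2 were higher (tfa and lipg) and 3 lower, 12.2% called against 0.642% of all genes, and the median was -0.52, positive in 5 of 27 alternative settings. The retinol and fatty acid binding list had 1 of 19 called, rbp2a (5.26%, against 0.642% of all genes), and a median of -1.13. It includes the intestinal fatty acid binding protein fabp2, with 0.65, 20.22 and 12.85 against 612.1, 1122 and 47.29 FPKM, highest in the 2 female libraries rich in intestine markers.

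The lower genes g0s2 and slc27a2a act on stored and free fatty acids. G0s2, whose mammalian protein restrains the triglyceride lipase of lipid droplets, measured 14.23, 72.48 and 33.96 FPKM against 335.4, 1074 and 798.6 FPKM (-4.28, SE 0.66, adjusted p = 0.0133). Treated females had 18.34, 6.321 and 8.556 FPKM. The call of g0s2 ended without male estradiol replicate 1 (0.0645) or 3 (0.0573). The acyl-CoA synthetase slc27a2a, which activates very long chain fatty acids and bile acids, measured 11.2, 32.07 and 50.67 against 322.6, 230.9 and 379.2 FPKM (-3.47, SE 0.58, adjusted p = 0.0189), and its call ended without female DMSO replicate 1 (0.108) or male estradiol replicate 1 (0.0707). Every treated male was below every untreated female in both genes, as in every gene called lower. Of 29 genes of fatty acid and triglyceride synthesis 1 was higher and 1 lower (6.9% called, against 0.642% of all genes), with a median of -0.56. Of 20 genes of bile acids and sterol export slc27a2a was the 1 called (5%, against the same 0.642%), with a median of -0.83. The sterol exporter abcg5 measured 1.347, 3.576 and 5.785 against 11.92, 16.46 and 22.71 FPKM (-2.07, adjusted p = 0.0626), and passed without male estradiol replicate 2 (0.0235) or female estradiol replicate 1 (0.0441).

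Lower genes of conjugation and small-molecule metabolism included 5 described first, of which adh5 was chosen after its values were seen. The glucuronosyltransferase ugt1a5, which adds a sugar acid to steroids, bilirubin and drugs, measured 1.03, 0 and 0.8411 FPKM against 20.62, 9.65 and 42.64 FPKM (-3.80, SE 0.52, adjusted p = 0.00867). Sat2a, of the family of polyamine acetyltransferases, measured 9.855, 28.5 and 18.43 against 285.1, 182 and 379.6 FPKM (-3.88, SE 0.46, adjusted p = 0.00382). Adh5, the class III alcohol dehydrogenase that clears formaldehyde, measured 38.17, 21.45 and 55.98 against 317.1, 285.6 and 342.1 FPKM (-3.10, SE 0.40, adjusted p = 0.00668). In each of them the highest treated male was far below the lowest untreated female.

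The other two oxidize or transaminate amino acids. The D-amino acid oxidase gene dao.3 measured 2.967, 0.5215 and 3.565 against 22.06, 31.85 and 66.5 FPKM (-3.62, SE 0.57, adjusted p = 0.0145), a call lost without male estradiol replicate 1 (0.0563). Bcat1, the cytosolic aminotransferase of leucine, isoleucine and valine, measured 3.031, 10.67 and 7.496 against 87.18, 75.35 and 104.9 FPKM (-3.60, SE 0.43, adjusted p = 0.00382).

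Among these 5, sat2a and bcat1 also separated the 2 treated sexes, in opposite directions. Treated females kept bcat1 at 92.76, 53.93 and 53.92 FPKM, close to untreated females (-0.44, adjusted p = 0.59), and treated males were below them by -3.16 (adjusted p = 0.0218). Untreated males had 22.93, 28.47 and 35.93 FPKM, between the treated males and both female groups. Sat2a was nearly lost in treated females, at 0.2148, 0.4055 and 0.06244 FPKM, so treated males were above them by 3.91 (adjusted p = 0.0101) while below both untreated groups. The glutathione transferase family gene mgst2, chosen after its values were seen, measured 4.85, 25.7 and 14.99 against 78.09, 73.88 and 95.17 FPKM (-2.61, adjusted p = 0.0375); treated females were at 92.09, 106 and 75.61 FPKM, and the difference between treated sexes was -2.75 (adjusted p = 0.0938). The call of mgst2 stood in 3 of the 12 fits that left out 1 library, and the highest adjusted p was 0.194, without female DMSO replicate 1.

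Around these genes the metabolic lists leaned to negative values with few calls. Of 86 genes of cytochrome P450 and conjugation, ugt1a5 was the 1 called (1.16%, against 0.642% of all genes), and the median was -0.72. At an unadjusted p under 0.05, 27 were negative and 2 positive, against 864 and 949 of all 9190 genes. The glutathione transferase gstal, at 8.662, 10.26 and 26.5 against 87.72, 61.69 and 83.74 FPKM, came next (-2.43, adjusted p = 0.0559). Of 57 genes of amino acid breakdown, a list without bcat1, 0 passed limma's threshold. The median was -0.64, positive in 1 of 27 alternative settings. At an unadjusted p under 0.05, 20 were negative and 2 positive (864 and 949 of all 9190). Cystathionine synthase cbsa measured 19.69, 19.84 and 31.48 against 68.27, 67.48 and 102.8 FPKM (-1.71, adjusted p = 0.0615), and gldc of glycine cleavage 41.17, 41.09 and 23.16 against 115.8, 96.66 and 119.6 FPKM (-1.67, adjusted p = 0.0615). Without male estradiol replicate 2 gstal, cbsa and gldc passed (0.0266, 0.0294 and 0.0191), as they did without female estradiol replicate 1 (0.0277, 0.0351 and 0.046). Of 13 polyamine genes sat2a was the 1 called (7.69%, against 0.642% of all genes). The median was -0.31, positive in 6 of 27 alternative settings.

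**Figure D4:**
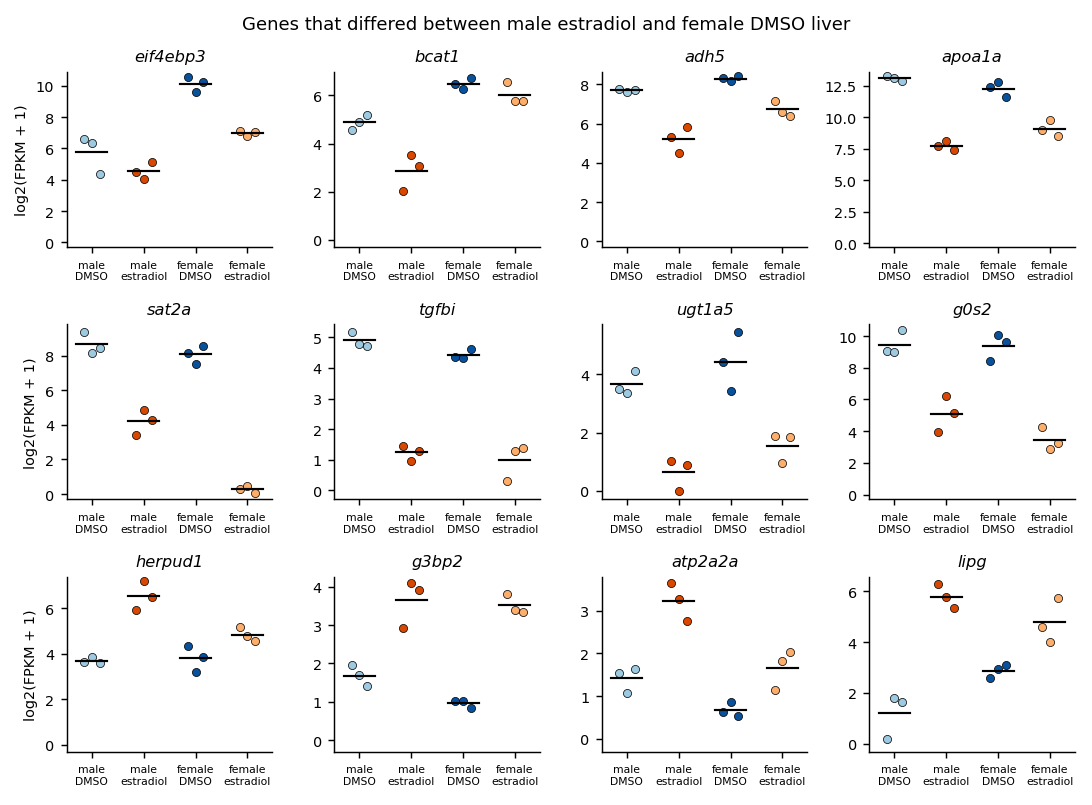
Level of 12 genes called different, as log2(FPKM + 1) (y axis), in the 4 groups (x axis), with 1 point a library and a bar for the mean of 3. Treated females stand near untreated females in bcat1, near 0 in sat2a and near treated males in tgfbi and g3bp2, and eif4ebp3 is high in untreated females compared with the other 3 groups.

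Also lower were tgfbi, b2m and psmb9a. Tgfbi, a secreted matrix protein induced by TGF-β, measured 1.754, 0.9477 and 1.436 FPKM against 19.35, 18.88 and 23.68 FPKM (-3.19, SE 0.36, adjusted p = 0.00285). Treated females had 0.2285, 1.407 and 1.577 FPKM and untreated males 25.42 to 35.3 FPKM, so the treated groups lay together below the untreated ones. A pair of genes chosen after their values were seen serves antigen presentation: b2m, the light chain of class I molecules, measured 36.51, 121.4 and 130.7 against 609.2, 895.4 and 537 FPKM (-2.98, adjusted p = 0.0375), and psmb9a, an immunoproteasome subunit, 0.825, 2.209 and 1.413 against 8.262, 9.63 and 4.983 FPKM (-1.79, adjusted p = 0.049). Leukocyte markers (11 genes) averaged 1.22, 2.49 and 1.80 in treated males and 2.40, 2.64 and 2.32 in untreated females, and their part in the result was not tested. The calls of b2m and psmb9a stood in 4 and 3 of the 12 fits that left out 1 library, with adjusted p up to 0.194 and 0.232 (without female DMSO replicate 1).

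Tufm and tmem126a, both with mitochondrial proteins, were lower. Tufm, the elongation factor of mitochondrial translation, measured 26.07, 26.39 and 22.49 FPKM against 99.32, 80.26 and 81.46 FPKM (-1.76, SE 0.32, adjusted p = 0.0308), and tmem126a, an assembly factor of complex I, 8.105, 8.687 and 8.243 against 31.58, 32.99 and 25.62 FPKM (-1.73, SE 0.32, adjusted p = 0.0309). Both were picked out after their values were seen. Untreated males, with 30.13 to 35.48 FPKM of tufm, and treated females, with 20.23 to 33.22 FPKM, were close to the treated males. Either call stood in 5 of the 12 fits that left out 1 library, with an adjusted p of 0.194 without female DMSO replicate 1. Of 81 tested genes of oxidative phosphorylation 0 passed limma's threshold, 29 were negative and 0 positive at an unadjusted p under 0.05 (864 and 949 of all 9190), 55 had groups without overlap (24.4% of all genes), and the median was -0.89. Over the alternative settings that median ran from -1.02 to -0.17. The complex II subunit sdhb measured 22.19, 23.41 and 21.16 against 75.36, 71.76 and 50.28 FPKM (-1.50, adjusted p = 0.133).

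None of the cytosolic ribosomal protein genes was called. All 80 had a negative difference, 73 had groups without overlap (24.4% of all genes), 42 had an unadjusted p under 0.05 (864 of 9190 genes were negative at this level), and 0 passed limma's adjusted threshold, with a median of -1.36 against 0.16 for all genes. Rpl19 measured 584.7, 1675 and 1282 FPKM against 3622, 2995 and 3331 FPKM (-1.61, adjusted p = 0.163), and passed without male estradiol replicate 2 (0.033). The lowest value came from male estradiol replicate 1, the library with the smallest sum of FPKM, and without that library the list's median was -0.75. Under quantile normalization it was -0.33, and it stayed negative in all 27 alternative settings.

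Of 26 cholesterol synthesis genes 21 had a positive difference and 0 passed limma's threshold, with a median of 1.09 that stayed positive in all 27 alternative settings. At an unadjusted p under 0.05, 4 were positive and 0 negative (949 and 864 of all 9190). The isomerase idi1 measured 60.8, 109 and 102.8 FPKM against 39.87, 18.97 and 20.9 FPKM (1.77, adjusted p = 0.0967), and passed without male estradiol replicate 2 (0.043). The synthase hmgcs1, at the entry of the pathway, measured 290.6, 951.8 and 600.6 against 153, 82.27 and 95.36 FPKM (2.36, adjusted p = 0.204). In both genes every treated male was above every untreated female. The groups did not overlap in 7 of the 26 genes of this list, near the 24.4% of all genes, so this is no support for either gene.

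**Figure D5:**
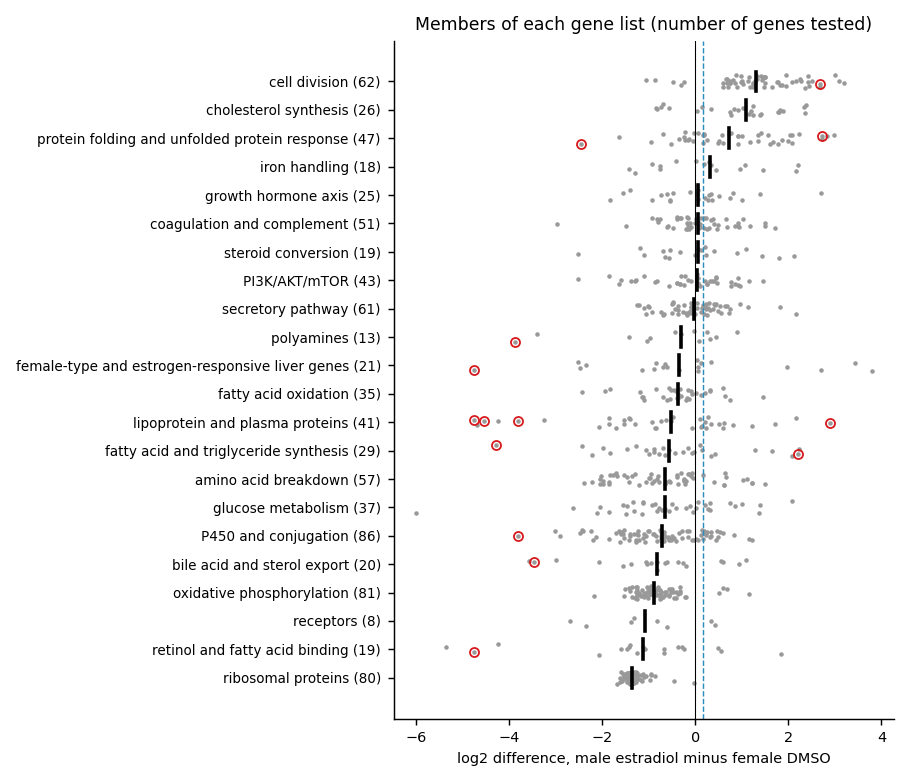
Difference in log2(FPKM + 1), male estradiol minus female DMSO (x axis), of each gene tested in 22 lists (y axis, number of genes tested in brackets), without genes listed at 0 in a whole group; black bars are list medians, red circles called genes, and the dashed line the median of all genes. Ribosomal protein genes lie left of 0, oxidative phosphorylation genes mostly left (77 of 81), and cell division and cholesterol synthesis genes mostly right.

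The exocrine pancreas genes were the largest named block of lower calls. These genes encode digestive enzymes made by acinar cells, which in zebrafish lie close to the liver. Of 17 tested, 10 were lower (58.8%, against 0.533% of all genes), and the median was -4.67. All 17 had a negative difference without overlap, against 24.4% of all genes without overlap in either direction. Trypsin (try) measured 19.16, 112 and 30.47 FPKM in treated males and 2243, 560.4 and 1361 FPKM in untreated females (-4.85, SE 0.68, adjusted p = 0.00905), and elastase ela3l 10.25, 46.49 and 13.91 against 1506, 313.5 and 1015 FPKM (-5.29, SE 0.98, adjusted p = 0.0328). Called members also included ctrl, si:ch73-103b2.3 (prss59.2 in RefSeq), ela2l, cell (cel.2 in RefSeq), cpa5, cpa4 and pdia2, and the 10 differences ran from -5.29 to -2.46. Untreated males had 1109 to 1456 FPKM of try, so both untreated groups were high, and treated females had 100.4 to 271.9 FPKM. The try call ended without female DMSO replicate 1 (adjusted p = 0.0589), that of ela3l stood in 5 of 12 such fits, with 0.194 without the same library, and those of the other 8 stood in 4 to 9 of 12. With the exocrine pancreas level of each library as a covariate the 10 differences ran from -1.90 to 0.30. That level is an average over this same marker list, so the shrinking of these differences was largely built in and shows nothing further about them.

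Further lower genes are described with this block. The 4 clone-named genes zgc:92041, zgc:92511, zgc:112368 and zgc:112160, which RefSeq lists as the elastases cela1.6, cela1.5 and cela1.1 and the chymotrypsinogen ctrb.3, differed by -5.25 to -3.79. The 4 genes of the clone ch211-240l19, which no other name was matched to, differed by -5.79 to -4.28. With the pancreas covariate these ran from -1.60 to -0.12 and from -2.45 to -1.0. The astacin protease c6ast3 measured 4.512, 11.17 and 3.454 against 313.6, 38.05 and 148.6 FPKM (-4.20, adjusted p = 0.0189), and ppdpfa, named for pancreatic progenitor differentiation, 9.053, 31.79 and 21.77 against 926.2, 326.7 and 186.2 FPKM (-4.30, adjusted p = 0.0189). The hormone gene ghrl (ghrelin), chosen after its values were seen, measured 0.7246, 1.652 and 0 against 22.83, 6.577 and 16.31 FPKM (-3.14, adjusted p = 0.0133). In c6ast3, ppdpfa and ghrl, as in every gene called lower, every treated male was below every untreated female. Each of these 3 calls ended without female DMSO replicate 1 (0.0939, 0.108 and 0.0802), male estradiol replicate 1 or male estradiol replicate 3. Over all alternative settings, the pancreas covariate among them, the ppdpfa difference ran from -4.82 to -2.97. That of c6ast3 ran from -5.02 to -1.05 and that of ghrl from -4.70 to -1.24 over the same settings. Exocrine pancreas markers averaged 2.53 to 4.42 in treated males and 6.12 to 8.20 in untreated females, and their part in these differences cannot be told apart from that of the treatment.

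The remaining lower genes with a symbol were chosen after their values were seen. Keap1a, the adaptor that marks the antioxidant factor Nrf2 for destruction, measured 1.832, 5.155 and 3.504 FPKM in treated males and 35.94, 13.22 and 21.92 FPKM in untreated females (-2.42, adjusted p = 0.0189). Untreated males had 60.61 to 62.27 FPKM and treated females 6.769 to 7.621, so keap1a was lower in value in both treated groups than in either untreated one. Coch, a secreted matrix protein, measured 0.04662, 0 and 0 against 7.343, 4.28 and 4.008 FPKM (-2.57, adjusted p = 0.0119), and nedd9, a scaffold of integrin signalling, 0.1116, 0.5186 and 0.549 against 2.486, 4.843 and 6.121 FPKM (-1.93, adjusted p = 0.0457). The RNA polymerase III subunit polr3gla measured 0.2934, 1.369 and 1.08 against 11.72, 4.801 and 7.7 FPKM (-2.22, adjusted p = 0.049). The endoribonuclease endou (-3.18) and the GTP cyclohydrolase gch2 (-1.38) had adjusted p = 0.0309 and 0.0328. Gch2 reached 1 FPKM in the female DMSO libraries alone (1.496, 2.773 and 1.855) and was at most 0.6087 FPKM elsewhere. It was thus tested only through the group where it is high, so its call is no support for a difference. The 5 clone-named genes left, LOC568900, LOC100334344, zgc:153921, zgc:173962 and zgc:162198, differed by -5.33 to -2.10. None of these 11 calls stood in all 12 fits that left out 1 library. Polr3gla and gch2 stood in 2 of them, nedd9 and zgc:153921 in 3, endou in 5, LOC100334344 and zgc:162198 in 7, and LOC568900 and zgc:173962 in 9. In the fits without a female DMSO library gch2 fell below the filter and was not tested. Coch stood in 10, ending without female DMSO replicate 1 (0.0725) or male estradiol replicate 3 (0.0523), and keap1a in 9, ending without female DMSO replicate 1 (0.124), male estradiol replicate 1 (0.0735) or male estradiol replicate 3 (0.0638).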

How the data were processed

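RNA was sequenced from 12 liver libraries. Per the submitters' processing notes, reads were trimmed with cutadapt, aligned to danRer7 with TopHat2 2.0.11 and quantified with Cufflinks 2.2.1; the gene annotation is not given in the sources used here. The table the authors deposited holds 1 value per gene symbol and library, taken as FPKM from the values and the tool, since its header names no unit. No counts are given, so depth is unknown and no counting interval was computed. No genome sequence was used, so genes appear without coordinates.

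Values were transformed as log2(FPKM + 1), and 4 group means were fitted to 12 libraries with limma 3.58.1 in R 4.3.3 (eBayes with an intensity trend, 8 residual degrees of freedom, Benjamini-Hochberg adjustment, threshold 0.05). A rank or permutation test of 3 against 3 libraries cannot go below p = 0.1. On simulated data (9190 genes, 5 runs) genes given a true log2 change of 1, 2, 3 or 4 were called in 4%, 43.6%, 75.6% and 85.2% of cases, and 6.29% of calls were false. The simulation set every starting mean to at least 4 on the log2 scale and drew independent noise, with 1 spread per gene for all groups. The data hold genes nearer 0, groups of unequal spread and organ transcripts that vary together, so these rates need not hold for this comparison. Tables and figures used Python 3.11.15, pandas 2.3.3 and matplotlib 3.10.9.

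The comparison, its gene lists and its tests were chosen with earlier results of these data known. Named genes were up to 12 of the largest differences each way among called genes without overlap and with at least 5 FPKM in the higher group. Fewer than 12 higher genes qualified. Left out were clone names, marker genes of other organs and genes listed at 0. Added were up to 4 members with the smallest p of each list with a call, all receptors and vitellogenins, and genes listed at 0 in 1 group. Some genes this rule selected, such as odc1 and cdk4, are not described, so the genes described are not its full output. Genes named outside this rule to describe a list, beside those said to be chosen after their values were seen, were picked with values known. Symbols were matched to RefSeq names (assembly GRCz12tu), and 14211 of 14581 had one. Alternatives were another pseudocount, filter, scaling or fit, a replicate block, marker covariates and left-out libraries.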

Additional observations from a re-analysis of the deposited data

How the results depend on the processing

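The count of 59 calls, 10 higher and 49 lower, moved with the setting. A pseudocount of 0.1 FPKM gave 38 (6 higher, 32 lower), no filter 57 (15 and 42), a filter of 5 FPKM 89 (11 and 78), quantile normalization 81 (15 and 66), median-of-ratios scaling 84 (13 and 71), rescaling without the 10 highest genes 50 (24 and 26), no intensity trend 84 (12 and 72) and leaving out genes listed at 0 gave 56 (7 and 49). The 6 libraries alone gave 2 (1 and 1). Array weights gave 5092 (2721 and 2371), with a fit that did not converge and a weight of 55.6 on male estradiol replicate 3. The oocyte covariate gave 121 (57 and 64), the exocrine pancreas covariate 1 (1 and 0), the fit without oocyte-rich estradiol libraries 440 (279 and 161) and that without intestine-rich female DMSO libraries 1 (1 and 0). Leaving out each library in turn gave 13 to 1512 calls, 3 to 976 higher and 10 to 536 lower. The cause of these shifts was not tested.

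Same-numbered male estradiol and female DMSO libraries deviated from their group means with correlations of -0.116, -0.395 and -0.142. Pairs with different numbers were not compared, and other organs' transcripts also vary among these libraries. Whether replicate numbers mark a shared batch was therefore not tested. With the replicate block 37 genes were called, 7 higher and 30 lower, 36 of them among the 59. Of the genes called, 5 turned positive, at adjusted p of 0.996 or above, with the exocrine pancreas covariate: ela3l (0.06), ctrl (0.08), si:ch73-103b2.3 (0.30), ela2l (0.20) and cpa5 (0.08). All 5 belong to the marker list that gave this covariate, so the loss of their differences was largely built in. Over the single genes described and all settings, 2289 results stayed on their side of the threshold, 540 lost a call and 134 gained one. Of 886 list medians 768 moved by less than the spread, and the rest moved further. Precision is limited by 3 libraries a group and unknown depth.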

Other observations

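Pck1 differed widely among the treated males. This gene, which makes phosphoenolpyruvate for new glucose, measured 5.707, 2086 and 1.546 FPKM in male estradiol and 1465, 1949 and 3183 FPKM in female DMSO, so replicate 2 stood with the untreated females and the other two far below (-5.99, limma adjusted p = 0.163). The insulin-like growth factor binding protein igfbp1a measured 1.931, 652.6 and 78.03 against 37.8, 46.35 and 40.63 FPKM (0.33, adjusted p = 0.908). Of 37 glucose metabolism genes 0 passed the threshold, and the median was -0.64. At an unadjusted p under 0.05, 10 were negative and 2 positive (864 and 949 of all 9190).

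Several lists described nowhere above had medians near that of all genes (0.16) and 0 calls by limma: coagulation and complement (51 genes, 0.05, 4 at an unadjusted p under 0.05), the secretory pathway (61 genes, -0.02, 4), the growth hormone axis (25 genes, 0.05, 4) and steroid conversion (19 genes, 0.05, 4). Over all genes 1813 of 9190 had such an unadjusted p. In that order, the medians of those lists took the other sign in 5, 9, 7 and 10 of 27 alternative settings. They ran from -0.73 to 1.64, -0.35 to 1.33, -0.54 to 0.98 and -0.64 to 0.50, so they do not show that these lists were unchanged. Of 35 fatty acid oxidation genes 0 passed, 7 were negative at an unadjusted p under 0.05 (864 of all 9190), and the median was -0.36. Of 18 iron handling genes transferrin, whose 0 values may be failed estimates, was the 1 called (5.56%, against 0.642% of all genes). The receptor tfr1b, at 3.272, 5.352 and 2.475 FPKM against 0, 0 and 0.02469, did not pass (adjusted p = 0.189).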
